A study of Mus musculus with 29 samples.

Results

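Imprinted genes of the growth-controlling group were followed through 3T3-L1 adipogenesis after inhibition of the KDM5 histone demethylases. The group was given by name as 10 genes, Dlk1, Meg3, Igf2, H19, Igf2r, Mest, Peg3, Plagl1, Cdkn1c and Grb10, and its members were found by their symbols among the Ensembl identifiers of the deposited counts. Of the 10, 6 (Dlk1, Igf2r, Mest, Peg3, Plagl1 and Grb10) were among the 11959 genes of the table, of which 11953 had a symbol. Meg3, Igf2, H19 and Cdkn1c had no row in the table used and were not analysed here.

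The cells were 3T3-L1, a clonal line of mouse fibroblasts that can be differentiated to white fat cells, in 29 samples of 8 groups. The labels name an mRNA library kit, while the study's text speaks of total RNA sequencing. At confluence, vehicle (DMSO) or 10 µM KDM5-C70 (C70), a KDM5 inhibitor, was given from day -2 until day 0, so that cells at days 1, 2 and 7 had been without C70 since day 0. Each of days 0, 1 and 2 had 3 vehicle and 4 C70 samples, and day 7 had 4 of each. Cells were in preadipocyte medium until day 0, in differentiation medium between days 0 and 2 and in adipocyte medium after day 2, so a change with time was also a change of medium. No genotype differed between groups. No source said that replicates were separate cultures, so P values measured the spread between these samples, which may be technical. Total counts per sample ran from 16320275 to 24037170.

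Imprinted genes are transcribed mainly from the allele of a single parent, set by DNA methylation laid down in the germ line. In the mouse, Dlk1, Mest, Peg3 and Plagl1 are expressed from the paternal copy, and Igf2r and Grb10 from the maternal copy in most tissues. Many members control growth, through the insulin-like growth factors (IGFs) or through DLK1, a preadipocyte surface protein that restrains adipogenesis. KDM5 enzymes remove methyl groups from lysine 4 of histone H3 (H3K4), a mark of active promoters that is dense at CpG-rich sequence. Alleles were not told apart in these counts, so nothing here measured imprinting itself.

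The 250 bases before the transcription start were taken for each member from RefSeq (GRCm38.p6), where 8 of the 10 genes, and all 6 in the table, had a window. The sequences of Dlk1, Peg3, Igf2r and Grb10 are shown because these 4 members were higher after C70 at day 2. They run 5′ to 3′ on the strand of the gene, with every CG dinucleotide in capitals.
Dlk1 (chr12:109452573-109452822, + strand): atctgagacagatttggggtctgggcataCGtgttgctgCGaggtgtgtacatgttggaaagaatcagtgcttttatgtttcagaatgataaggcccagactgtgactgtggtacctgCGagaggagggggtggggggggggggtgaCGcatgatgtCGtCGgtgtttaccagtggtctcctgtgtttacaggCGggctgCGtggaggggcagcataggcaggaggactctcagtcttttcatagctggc
Peg3 (chr7:6730420-6730669, - strand): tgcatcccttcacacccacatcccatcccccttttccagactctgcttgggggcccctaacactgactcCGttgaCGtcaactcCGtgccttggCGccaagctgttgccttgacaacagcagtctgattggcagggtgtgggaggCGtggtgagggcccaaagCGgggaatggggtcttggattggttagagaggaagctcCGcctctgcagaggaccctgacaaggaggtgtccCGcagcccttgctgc
Igf2r (chr17:12769707-12769956, - strand): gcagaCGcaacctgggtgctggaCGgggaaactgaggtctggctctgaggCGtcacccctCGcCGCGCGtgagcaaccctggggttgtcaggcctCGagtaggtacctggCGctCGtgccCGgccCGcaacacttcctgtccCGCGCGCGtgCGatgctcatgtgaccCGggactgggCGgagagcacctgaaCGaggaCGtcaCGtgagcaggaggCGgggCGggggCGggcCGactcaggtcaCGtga
Grb10 (chr11:12037421-12037670, - strand): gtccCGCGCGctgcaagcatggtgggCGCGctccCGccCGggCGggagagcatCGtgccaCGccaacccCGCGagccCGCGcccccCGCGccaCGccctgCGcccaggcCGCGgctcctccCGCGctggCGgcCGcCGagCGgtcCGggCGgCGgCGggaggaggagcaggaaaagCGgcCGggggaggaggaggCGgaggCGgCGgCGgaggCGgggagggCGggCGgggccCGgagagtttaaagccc
The motif searched was CG, which reads the same on both strands. Dlk1 and Peg3 each held 8, more than 57.0% of 32851 mouse windows of this length. Igf2r held 27, more than 91.4% of windows, and Grb10 held 40 in the window shown, more than 98.7%, and 8 in the window of a second RefSeq start. Mest held 14 in the window at chr6:30737800-30738049 and 7 in that at chr6:30733256-30733505, and Plagl1 held 19. The median window held 6, and 92.13% of windows held at least 1. In the windows shown, the members that moved together at day 2 were not alike in CpG number. Counted in its second window, Grb10 held 8 like Dlk1 and Peg3, and only Igf2r differed. The bases just after the start lay in an annotated transcript for Dlk1, Peg3 and the second Grb10 window. For the Igf2r and Grb10 windows shown they did not, so those starts are less certain.

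Levels were compared between genes only per length, as RPKM (TMM-scaled CPM per kilobase of exon, CPM being counts scaled to a common library total). In vehicle samples at day 0 the order was Dlk1 (455 ± 17.4 RPKM, SD, n = 3), Igf2r (155 ± 3.18), Mest (19.001 ± 1.82), Grb10 (12.97 ± 0.491), Peg3 (2.21 ± 0.122) and Plagl1 (1.05 ± 0.0847). The samples of neighbours in this order did not overlap. Igf2r was above Dlk1 in vehicle samples at day 1, with 203 ± 9.15 against 182 ± 1.56 RPKM, and at day 2, with 93.1 ± 3.29 against 28.6 ± 0.809 RPKM. At day 7 these genes could not be ordered in vehicle samples, where Dlk1 ranged from 27.7 to 44.0 RPKM and Igf2r from 26.8 to 35.4. After C70 the top of the order was shared already at day 1, with 237 ± 10.3 RPKM for Dlk1 and 237 ± 8.10 for Igf2r (n = 4). Mest and Grb10 likewise overlapped in C70 samples at day 0, at 12.9 ± 0.485 and 12.4 ± 0.173 RPKM.

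**Figure D1:**
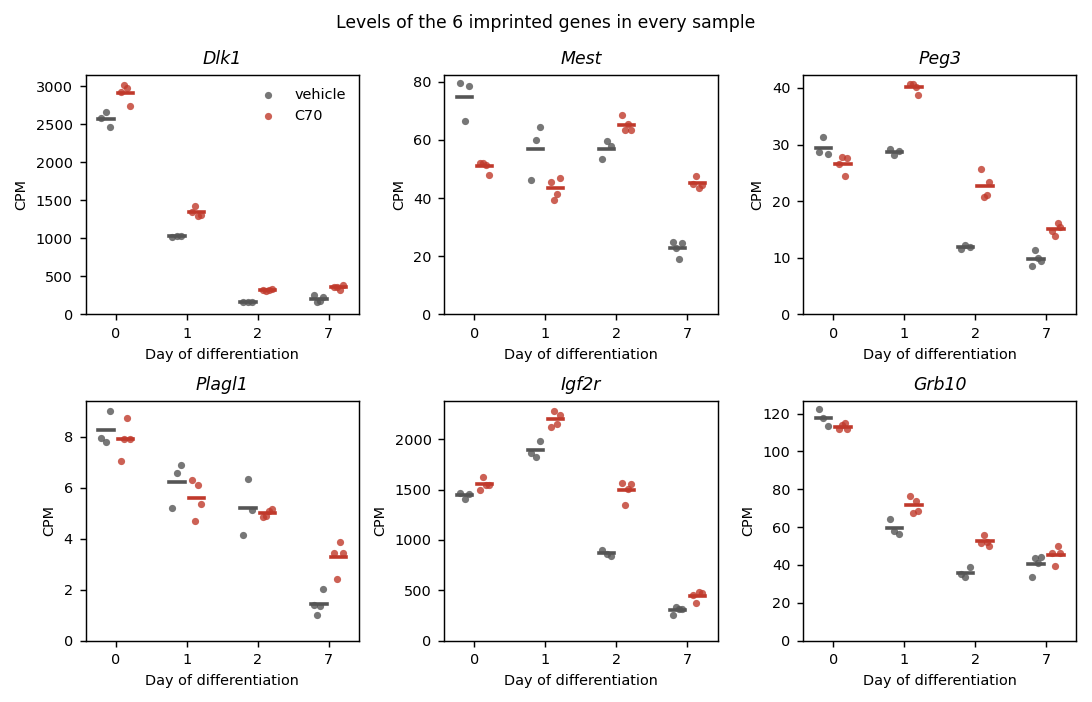
CPM (y axis, from 0) of the 6 imprinted genes at days 0, 1, 2 and 7 (x axis), 1 panel per gene, with 1 point per sample, grey for vehicle and red for C70, and a bar at the group mean (days are evenly spaced). Dlk1 fell from about 2572 CPM to 161.7 in vehicle samples by day 2, and the C70 samples of Dlk1 and Igf2r lay above the vehicle samples on every day.

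Dlk1 encodes Delta-like non-canonical NOTCH ligand 1, also called Pref-1, whose cleaved form keeps preadipocytes from differentiating. It lies on the plus strand at chr12:109452823-109463336 (GRCm38), with no gene annotated on the other strand. Levels of a gene between samples are given as CPM scaled by the trimmed mean of M values (TMM). A differentially expressed gene (DEG) had a Benjamini-Hochberg adjusted P value under 0.05 over all 11959 genes and a log2 fold change beyond 0.32 in either direction, called the fold threshold here. At day 0 the vehicle samples held 2579, 2666 and 2470.05 CPM, and the C70 samples 2921, 3012, 2973 and 2746 CPM. All C70 samples were above all vehicle samples, but the log2 fold change of 0.18 ± 0.09 (SE) did not pass the test (edgeR quasi-likelihood, adjusted P = 0.182). Over the alternatives it was 0.15 to 0.21, under the fold threshold, although the lowest adjusted P was under 0.05.

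At day 1 Dlk1 stood at 1018, 1034 and 1033 CPM with vehicle and at 1347, 1424, 1299 and 1303 CPM with C70. The groups were apart, and Dlk1 was higher after C70 by 0.39 ± 0.09 on the log2 scale (adjusted P = 0.00118). At day 2 the vehicle samples had reached 159, 159 and 167 CPM against 321, 301, 314 and 331 CPM with C70. This was the widest gap of any day for Dlk1, a log2 fold change of 0.97 ± 0.10 (adjusted P = 6.7e-10). Day 7 levels were 249.07, 157, 170.4 and 233 CPM with vehicle and 354, 365, 326 and 384 CPM with C70. The groups did not overlap here either (log2 fold change 0.82 ± 0.09, adjusted P = 5.9e-09). The difference grew between days 1 and 2, by 0.58 ± 0.13 on the log2 scale (interaction contrast, adjusted P = 0.00156). No such change passed the test between days 0 and 1 (0.21 ± 0.13, adjusted P = 0.293) or between days 2 and 7 (-0.15 ± 0.13, adjusted P = 0.412). The latter ran from -0.25 without vehicle replicate 2 of day 7 to -0.040 without vehicle replicate 1, passing in neither case.

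Over time Dlk1 had the steepest fall of the 6 members in both treatments at day 2. With vehicle it decreased from day 0 by 1.32 on the log2 scale at day 1, by 3.99 at day 2 and by 3.67 at day 7. With C70 the decreases from its own day 0 were 1.12, 3.20 and 3.03. All 6 of these changes passed the test, the largest adjusted P being 6.0e-13. Dlk1 thus fell under both treatments, and the level reached after C70 was the higher, with means of 317 ± 12.8 against 161.7 ± 4.58 CPM at day 2 and 357 ± 24.5 against 202 ± 45.7 CPM at day 7.

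Igf2r and Grb10 act on growth factor signalling. Igf2r encodes the receptor that carries IGF2 to lysosomes for degradation and sorts lysosomal enzymes, and lies on the minus strand at chr17:12682406-12769664. Its C70 samples were above its vehicle samples on all 4 days. Levels at day 0 were 1466, 1409.65 and 1454 CPM with vehicle and 1499, 1624, 1549.58 and 1549 CPM with C70, a log2 fold change of 0.11 ± 0.08 that did not pass the test (adjusted P = 0.356). At day 1 it stood at 1861, 1825 and 1987 CPM with vehicle and at 2123, 2282, 2155 and 2248 CPM with C70. That difference had an adjusted P of 0.0200 but, at 0.22 ± 0.08, was under the fold threshold. At day 2 the values were 898, 864 and 837 CPM against 1564, 1346, 1510.28 and 1552 CPM. Igf2r was then higher after C70 by 0.78 ± 0.08 (adjusted P = 5.2e-10), and this difference exceeded that of day 1 by 0.57 ± 0.11 (interaction, adjusted P = 0.000221). Day 7 samples held 249.07, 329.61, 316 and 309.93 CPM with vehicle and 450.0, 370.04, 483 and 476 CPM with C70 (log2 fold change 0.56 ± 0.07, adjusted P = 1.5e-07).

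The course of Igf2r was not that of Dlk1. It rose from day 0 to day 1 by 0.39 ± 0.08 with vehicle (adjusted P = 7.9e-05) and by 0.50 ± 0.07 with C70 (adjusted P = 1.7e-07). By day 2 it had fallen below its day 0 level with vehicle (-0.74 ± 0.08, adjusted P = 1.3e-09), whereas with C70 it was at -0.06 ± 0.07 and did not pass the test (adjusted P = 0.445), with values from -0.082 to -0.012 when C70 replicate 1 or 2 of day 2 was left out. By day 7 it had dropped by 2.26 with vehicle and by 1.81 with C70. The antisense transcript Airn, which overlaps Igf2r and silences the paternal copy in the embryo, is in the table and moved in the same direction. Airn stood at 15.7 ± 2.32 CPM (SD, n = 3) with vehicle and 33.4 ± 0.434 CPM (n = 4) with C70 at day 2, a log2 fold change of 1.08 ± 0.12 (adjusted P = 3.1e-09). The libraries were strand-specific per the labels, but whether the counting used strand was not stated, so reads of Igf2r and Airn cannot be told apart with certainty.

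Grb10 encodes an adaptor protein that binds the insulin and IGF1 receptors and dampens their signal, and lies on the minus strand at chr11:11930508-12038683. Levels at day 0 overlapped, at 122.3, 117.9 and 113 CPM with vehicle and 111.6, 113.91, 115 and 112 CPM with C70 (log2 fold change -0.06 ± 0.07, adjusted P = 0.613). At day 1 vehicle samples stood at 64.4, 58.0 and 56.1 CPM and C70 samples at 76.5, 67.2, 73.6 and 68.5 CPM. These groups were apart, and the difference of 0.26 ± 0.07 had an adjusted P of 0.00457 but was under the fold threshold. Without vehicle replicate 1 of day 1, it was 0.32 and passed. At day 2 Grb10 was higher after C70, with 51.7, 56.0, 52.1 and 49.999 CPM against 35.1, 33.8 and 38.8 CPM (0.55 ± 0.08, adjusted P = 6.1e-07). At day 7 the samples overlapped again, at 33.6, 43.5, 41.01 and 44.4 CPM with vehicle and 46.5, 39.3, 49.97 and 46.1 CPM with C70 (0.16 ± 0.07, adjusted P = 0.0734). This value was 0.088 without vehicle replicate 1 of day 7 and 0.23 without C70 replicate 2 (adjusted P = 0.0107), under the fold threshold in both. Grb10 was thus a DEG at day 2 alone, and its C70 effect shrank between days 2 and 7 by 0.39 on the log2 scale (-0.39 ± 0.11, adjusted P = 0.00579). Over time it decreased from day 0 by 0.99, 1.72 and 1.54 with vehicle and by 0.66, 1.11 and 1.31 with C70 at days 1, 2 and 7, and every one of these passed the test.

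Mest, Peg3 and Plagl1 complete the members in the table. Mest encodes a protein of the hydrolase fold whose level has been associated with fat cell size, and lies on the plus strand at chr6:30723547-30748465. It was the only member that was a DEG with lower expression after C70, and its direction differed between early and late samples. At day 0 it stood at 79.5, 66.7 and 78.7 CPM with vehicle and at 52.05, 52.2, 51.2 and 48.1 CPM with C70. The groups were apart, and Mest was lower after C70 by 0.56 (log2 fold change -0.56 ± 0.08, adjusted P = 8.6e-06). At day 1 the values were 46.2, 60.1 and 64.5 CPM with vehicle and 45.5, 39.2, 41.5 and 47.1 CPM with C70. The lowest vehicle sample lay among the C70 samples (-0.39 ± 0.09, adjusted P = 0.000462), and without vehicle replicate 3 of day 1 the difference was -0.29 and no longer passed the fold threshold.

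By day 2 Mest stood at 53.5, 59.8 and 57.9 CPM with vehicle and at 68.7, 63.3, 65.6 and 63.3 CPM with C70. The C70 samples were now the higher ones, but the change did not pass the test (0.19 ± 0.08, adjusted P = 0.0583). Over the alternatives it was 0.15 to 0.23, under the fold threshold, although the lowest adjusted P was under 0.05. At day 7 the vehicle samples held 24.8, 22.7, 19.2 and 24.7 CPM and the C70 samples 45.0, 47.7, 43.6 and 44.6 CPM, a log2 fold change of 0.99 ± 0.09 (adjusted P = 1.6e-10). The C70 effect on Mest became more positive between days 1 and 2, by 0.59 ± 0.12 (adjusted P = 0.000655), and again between days 2 and 7, by 0.80 ± 0.12 (adjusted P = 6.9e-06). With vehicle, Mest decreased from day 0 by 0.40, 0.39 and 1.72 at days 1, 2 and 7. With C70 it was at -0.23 ± 0.08 at day 1, rose by 0.36 ± 0.08 at day 2 (adjusted P = 0.000149) and was at -0.17 ± 0.08 at day 7 (adjusted P = 0.0516). With scaling by total counts alone the day 7 value was -0.34 and passed. The day 1 fall with vehicle was -0.27, under the fold threshold, without vehicle replicate 1 of day 1. Copg2, a coat protein gene that overlaps Mest on the other strand, was a DEG on none of the 4 days, with log2 fold changes from -0.30 at day 2 to -0.04 at day 7. The same doubt about strand holds for Mest and Copg2, and for Gm44296, which also overlaps Mest.

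**Figure D2:**
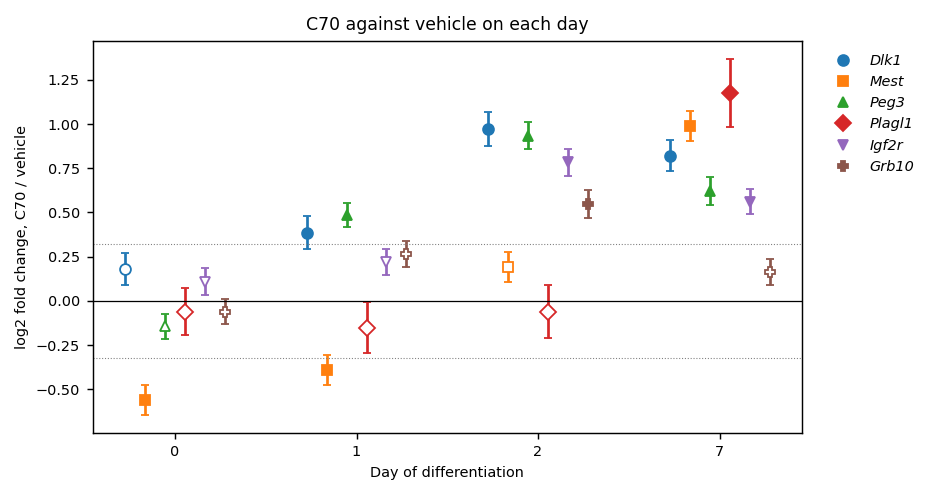
Log2 fold change of C70 against vehicle (y axis) for each of the 6 members at days 0, 1, 2 and 7 (x axis), with the standard error of the edgeR fit as bars. Filled symbols mark DEGs, open symbols the rest, and dotted lines the fold threshold. Mest ran from -0.56 at day 0 to 0.99 at day 7, and Plagl1 left the band around 0 at day 7, with 1.18.

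Peg3 encodes a zinc finger protein that acts in cell death and metabolism, and lies on the minus strand at chr7:6703892-6730431. At day 0 it was at 28.7, 31.3 and 28.4 CPM with vehicle and 26.5, 27.8, 24.4 and 27.7 CPM with C70. All C70 samples were below all vehicle samples, without passing the test (-0.14 ± 0.07, adjusted P = 0.148). At day 1 the order had turned, with 29.2, 28.1 and 28.8 CPM against 40.7, 40.8, 40.2 and 38.8 CPM (0.48 ± 0.07, adjusted P = 1.0e-06). At day 2 vehicle samples held 11.5, 12.2 and 11.9 CPM and C70 samples 25.6, 20.7, 21.1 and 23.3 CPM (0.93 ± 0.08, adjusted P = 2.5e-11). At day 7 the values were 8.44, 11.4, 9.95 and 9.43 CPM with vehicle and 14.8, 13.9, 16.2 and 15.5 CPM with C70 (0.62 ± 0.08, adjusted P = 2.4e-07). Peg3 was apart between treatments on all 4 days, and higher after C70 on the last 3. Its C70 effect rose by 0.63 ± 0.10 between days 0 and 1 (adjusted P = 1.7e-05) and by 0.45 ± 0.10 between days 1 and 2 (adjusted P = 0.00201). Between days 2 and 7 the effect shrank (-0.31 ± 0.11, adjusted P = 0.0338), just under the fold threshold in this fit and past it with upper quartile factors (-0.32), with total counts only (-0.37) and when any of 8 libraries was left out. Its change from day 0 to day 1 was an increase with C70 (0.59 ± 0.06, adjusted P = 1.0e-09), while with vehicle it was -0.04 ± 0.07 (adjusted P = 0.664). Later it fell with vehicle by 1.31 at day 2 and by 1.58 at day 7, and with C70 by 0.82 at day 7. At day 2 with C70 it was at -0.23 ± 0.07, under the fold threshold.

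Plagl1 encodes a zinc finger transcription factor, also called Zac1, that halts the cell cycle and activates other imprinted genes. It lies on the plus strand at chr10:13060504-13131694, where Gm27741 overlaps it on the other strand, so the doubt about strand holds for its values too. It was the lowest of the 6 members, with counts from 18 to 197 per sample, so its errors were the largest. Vehicle and C70 samples overlapped at days 0, 1 and 2, with group means of 8.25 ± 0.663 and 7.91 ± 0.692 CPM, 6.22 ± 0.893 and 5.61 ± 0.748 CPM, and 5.20 ± 1.11 and 5.003 ± 0.153 CPM. Adjusted P values on those days were 0.816, 0.435 and 0.763. At day 7 Plagl1 was at 1.40, 1.01, 1.37 and 2.03 CPM with vehicle and at 3.43, 2.43, 3.87 and 3.43 CPM with C70. The groups did not overlap, and the log2 fold change of 1.18 ± 0.19 was the largest of any member on any day (adjusted P = 1.3e-05). The interaction between days 2 and 7 was 1.24 ± 0.25 (adjusted P = 0.000264). From day 0 to day 7 Plagl1 dropped by 2.50 with vehicle and by 1.26 with C70, and it had decreased by 0.66 in both at day 2. At day 1 the decreases were 0.41 with vehicle (adjusted P = 0.0138) and 0.50 with C70 (adjusted P = 0.00117). The vehicle value was -0.29 without vehicle replicate 1 of day 1 and -0.34 without vehicle replicate 3 of day 0, and passed in neither case.

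Counted together, 0 members were higher and 1 (Mest) was lower after C70 at day 0, where 5.89% of all genes were higher and 3.09% lower. At day 1, 2 members (Dlk1 and Peg3) were higher and 1 (Mest) lower, against 13.6% and 7.80% of all genes. At day 2, 4 members (Dlk1, Peg3, Igf2r and Grb10) were higher and 0 lower, against 16.9% and 13.6%. At day 7, 5 members (all but Grb10) were higher and 0 lower, against 14.3% and 4.85%. The median log2 fold change of the 6 members was -0.06, 0.24, 0.67 and 0.72 at days 0, 1, 2 and 7. That of all genes was between -0.01 and 0.01, where TMM scaling tends to hold it. Where no member was called in a direction, none passed at an unadjusted P under 0.05 in edgeR either, with 0 higher at day 0 against 16.2% of all genes, and 0 lower at days 2 and 7 against 28.3% and 22.8%. DESeq2 gave the counts of the main test on every day. Over the alternatives, the lowest adjusted P at day 0 was under 0.05 for Dlk1 and for Igf2r, both under the fold threshold throughout. The members were chosen with earlier results known, so these counts describe them and no test was made over the group.

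Of the changes from day 0 in vehicle samples, 1 member rose (Igf2r) and 4 fell at day 1, against 26.2% and 27.9% of all genes. At day 2, 0 rose and all 6 fell, against 33.4% and 32.4%, and at day 7 again 0 rose and all 6 fell, against 36.7% and 36.7%. In C70 samples 2 members rose (Igf2r and Peg3) and 3 fell at day 1, against 25.8% and 26.8% of genes. At day 2, 1 rose (Mest) and 3 fell, against 31.0% and 30.8%, and at day 7, 0 rose and 5 fell, against 35.9% and 35.4%. The 3 comparisons within a treatment share the day 0 samples, and the comparisons of treatments share the samples of each day, so they are not independent of each other. The C70 effect differed between days 0 and 1 in 2 members (Peg3 and Grb10) and 13.9% of genes, between days 1 and 2 in 4 (Dlk1, Igf2r, Mest and Peg3) and 13.8%, and between days 2 and 7 in 3 (Mest, Plagl1 and Grb10) and 20.9%. On the adjusted P alone the shares of all genes were 19.9%, 19.8% and 30.3%. The Grb10 difference between days 0 and 1 was 0.32 ± 0.10 (adjusted P = 0.0216) and fell under the fold threshold or missed the adjusted P when any of 7 libraries was left out.

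**Figure D3:**
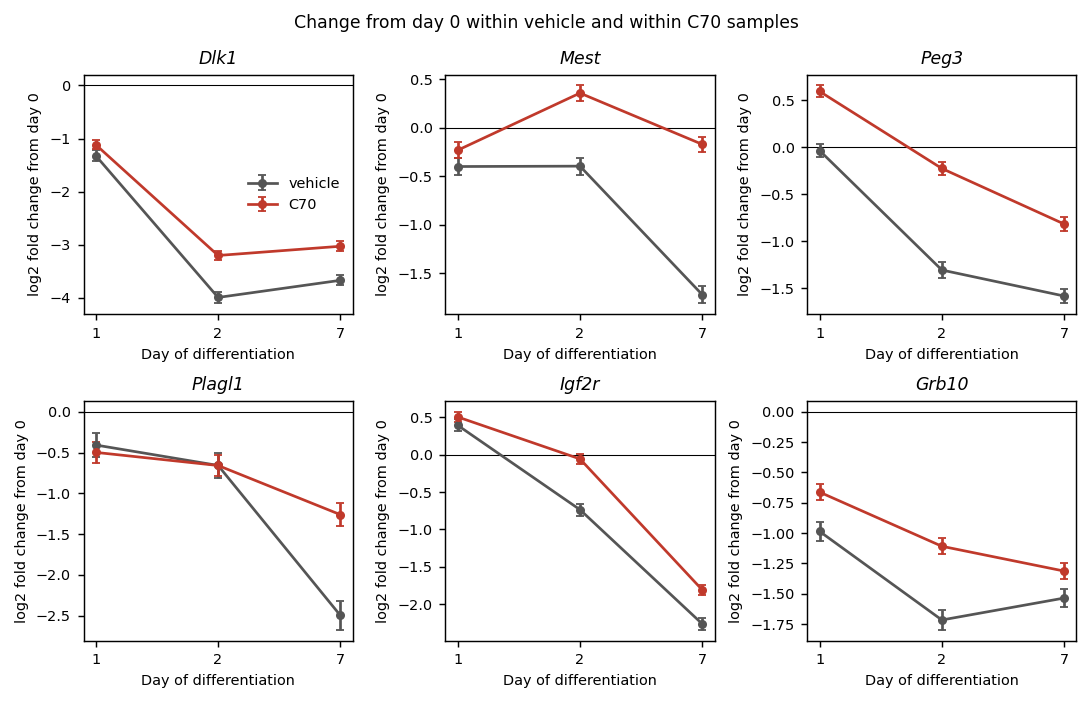
Log2 fold change from day 0 (y axis) at days 1, 2 and 7 (x axis) within vehicle (grey) and within C70 (red) samples, 1 panel per member with its own y scale and evenly spaced days, and the standard error of the fit as bars. All 6 members were below day 0 at day 7 in vehicle samples, from -1.54 (Grb10) to -3.67 (Dlk1), and Mest with C70 stayed within 0.36 of its day 0 level.

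The samples are labelled as adipocytes, so markers were read beside the members. At day 0 the 11 adipocyte markers in the table (of 12, Lep having no row) summed to 1372 ± 62.3 CPM with vehicle and 1510.2 ± 22.6 CPM with C70, and Adipoq, the adipokine of mature fat cells, was at 0.283 ± 0.110 and 0.341 ± 0.0504 CPM. Of these 11, Cebpa was higher (0.39) and Pparg and Fabp4 were lower (-0.50 and -0.41) after C70 at day 0. These were therefore preadipocyte cultures by their markers. With vehicle the sum reached 5695 ± 181 CPM at day 1, 25651 ± 478 at day 2 and 28436 ± 1889 at day 7. With C70 it was lower at days 1 and 2, at 3588 ± 63.6 and 15416 ± 735 CPM, with 8 and 9 of 11 markers lower, and at day 7 it was 31021 ± 1260 CPM, with 0 lower and 2 higher. The 8 preadipocyte and fibroblast markers in the table (of 10) summed to 20672 ± 385 CPM with vehicle and 21115 ± 897 with C70 at day 0, with 3 of 8 higher, and to 9233 ± 531 and 9926 ± 387 CPM at day 1, with 4 higher and 1 lower. They summed to 4009 ± 40.2 CPM with vehicle and 6708 ± 180 with C70 at day 2, and to 3000.5 ± 355 and 5674 ± 310.1 CPM at day 7, with 7 of 8 higher on both days. The 6 markers of cycling cells summed to 481 ± 51.5 CPM with vehicle and 468 ± 8.29 with C70 at day 0, to 612 ± 37.1 and 475 ± 22.2 at day 1, to 463 ± 7.69 and 314 ± 5.19 at day 2, and to 76.5 ± 3.40 and 64.3 ± 3.63 at day 7, with 0, 4, 5 and 1 of 6 lower after C70. Of all genes, 5.89%, 13.6%, 16.9% and 14.3% were higher after C70 at days 0, 1, 2 and 7, and 3.09%, 7.80%, 13.6% and 4.85% lower. At such shares a list can hold DEGs on a day without a tie to the members. All 3 lists had DEGs at day 1, when Dlk1 and Peg3 were higher and Mest lower, and at day 2, when Dlk1, Igf2r, Peg3 and Grb10 were higher. All 3 also had DEGs at day 7, when 5 members were higher, and the adipocyte and fibroblast lists had them at day 0, when Mest was lower. Their part in the members' differences was not tested, and in bulk samples fewer cells of a type and less RNA per cell cannot be told apart. Endothelial and epithelial markers had no row, and 1 of 5 macrophage markers (Cd68) and 1 of 5 muscle markers (Des) had one, with Ptprc, Adgre1, Csf1r, Itgam, Myod1 and Myog among those without.

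Other imprinted genes were read from a list of 63, of which 33 were in the table. Those higher after C70 numbered 3, 7, 11 and 9 at days 0, 1, 2 and 7, and those lower 2, 2, 2 and 1. The share of all genes tested that was higher was 5.89%, 13.6%, 16.9% and 14.3% on these days, and the share lower was 3.09%, 7.80%, 13.6% and 4.85%, which are also the background for the counts of the imprint regulators, IGF, NOTCH and CDK inhibitor genes. Their median log2 fold change was -0.03, 0.05, 0.21 and 0.06 on these days, and 20 of the 33 were no DEG at day 2. Dcn, the proteoglycan decorin, had the largest difference. It stood at 41.3 ± 0.493 CPM with vehicle and 245 ± 18.4 CPM with C70 at day 2 (log2 fold change 2.57 ± 0.10, adjusted P = 2.2e-19), and it was higher at days 1 and 7 as well (1.74 and 1.61). Ndn, which encodes the neuronal growth suppressor necdin, was higher at day 2 (0.70 ± 0.11) and day 7 (1.12 ± 0.10). Ampd3, an AMP deaminase, was higher at days 0, 1 and 2 (0.91, 1.23 and 1.27), and at day 7 it was at 0.17 ± 0.12 and did not pass.

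Peg10, a gene of retrotransposon origin, went the other way. It was lower after C70 at day 0 (-0.73 ± 0.11, adjusted P = 1.4e-05), day 1 (-1.39 ± 0.11, adjusted P = 1.2e-11) and day 7 (-0.40 ± 0.10, adjusted P = 0.00239). Its level with vehicle was 225 ± 11.6 CPM at day 0 and 2247 ± 215 CPM at day 1, against 135 ± 8.41 and 855 ± 48.4 CPM with C70, so its rise was present in both treatments. At day 2 Peg10 was at -0.26 ± 0.11, under the fold threshold.

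Neighbours in the domains of the members were in part in the table. Begain, beside Dlk1 on chromosome 12, was higher at days 1, 2 and 7 (0.69 ± 0.21, 0.84 ± 0.18 and 1.68 ± 0.25), the last from 0.649 ± 0.178 CPM with vehicle to 2.11 ± 0.338 CPM with C70, and at day 0 it was at -0.12 ± 0.14. Airn was higher at days 1 and 7 also (0.43 ± 0.10 and 1.07 ± 0.16). In the domain of Cdkn1c, Kcnq1ot1, the long noncoding RNA of that cluster, was higher at day 0 (0.48 ± 0.14), day 1 (0.50 ± 0.14) and day 7 (0.61 ± 0.14), and was at 0.30 ± 0.14 at day 2 (adjusted P = 0.0670). Osbpl5 was higher at days 2 and 7 (0.65 and 0.53) and Cd81 at day 2 (0.36 ± 0.05), whereas Tssc4 and Nap1l4 passed on no day, at -0.25 to 0.10 and -0.17 to 0.03. A domain therefore held genes that changed and genes that did not pass.

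**Figure D4:**
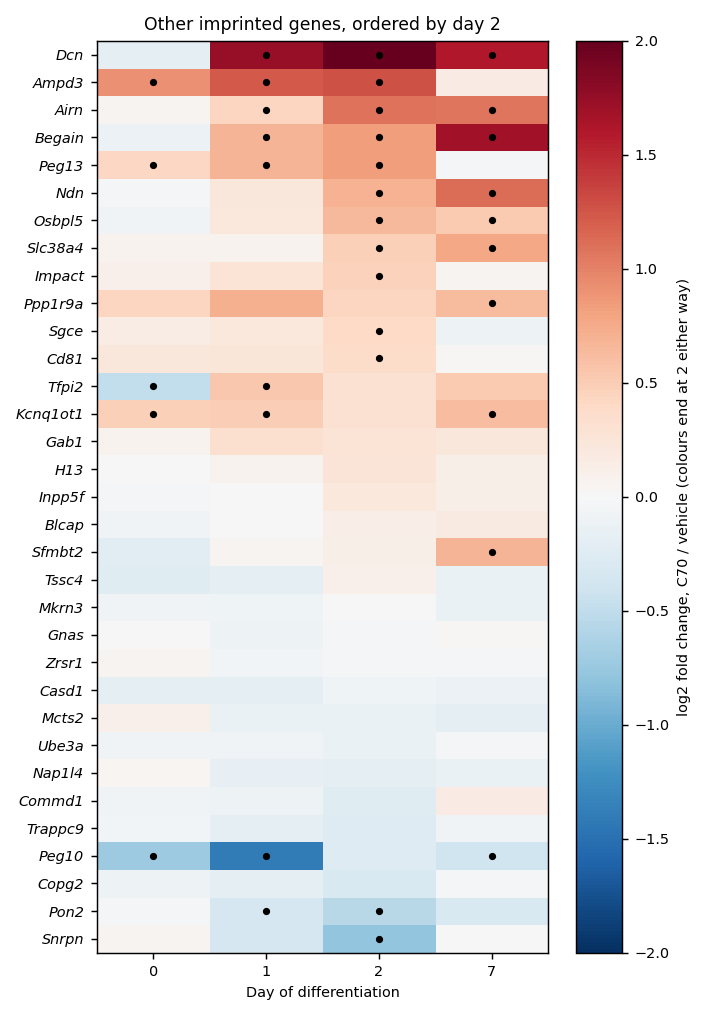
Log2 fold change of C70 against vehicle (colour, ending at 2 in either direction) for the 33 other imprinted genes in the table (rows, ordered by day 2) at days 0, 1, 2 and 7 (columns), with a dot on each DEG. Dots are most numerous at day 2, 11 higher and 2 lower, and Dcn at the top reached 2.57 on that day.

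Since Igf2r and Grb10 act on IGF signalling, the IGF pathway was read from a list of 25 genes, 19 of them in the table. Higher genes numbered 5, 7, 8 and 10 over the 4 days and lower genes 1, 1, 1 and 0, with medians of 0.11, 0.20, 0.27 and 0.39. On the last day 1 was lower at an unadjusted P under 0.05 in edgeR, against 22.8% of all genes. Igfbp6 and Igfbp3, binding proteins that hold IGFs in the medium, had the largest differences. Igfbp6, which prefers IGF2, stood at 8.82 ± 0.118 CPM with vehicle and 51.1 ± 3.44 CPM with C70 at day 0 (2.54 ± 0.13, adjusted P = 8.5e-16), and it was higher on the 3 later days (2.36, 2.97 and 1.38). Igfbp3 was at 4.29 ± 0.334 and 16.6 ± 1.40 CPM at day 0 (1.95 ± 0.13, adjusted P = 1.2e-12), and was higher later too (2.68, 2.62 and 0.95). Both were already higher at day 0, when no member was a DEG in that direction. Igfbp4 and Igfbp7 were picked out after their values were seen. Igfbp4, another binding protein, was lower at day 1, at 1989 ± 149.9 CPM with vehicle and 1224 ± 29.7 CPM with C70 (-0.70 ± 0.06, adjusted P = 1.1e-10), and was a DEG on no other day, and Igfbp7 was a DEG at day 7 alone (0.74 ± 0.09).

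The proteases Htra1 and Pappa, which cut IGF binding proteins, were higher at day 2 by 1.88 ± 0.25 and 0.87 ± 0.12, and at day 7 by 0.61 ± 0.18 and 0.60 ± 0.13. Differences were present earlier too. Htra1 was at 14.7 ± 0.830 CPM with vehicle and 19.1 ± 0.774 with C70 at day 0, and at 1.38 ± 0.330 and 2.65 ± 0.106 at day 1. Pappa was at 35.8 ± 2.78 and 34.2 ± 0.524 CPM at day 0, and at 46.5 ± 3.13 and 61.2 ± 5.27 at day 1. Htra1 was low from day 1 on, at 0.490 ± 0.143 CPM with vehicle and 1.85 ± 0.282 CPM with C70 at day 2. Igfals, the acid-labile subunit of the circulating IGF complex, was higher at days 0, 1 and 2 (0.90, 0.88 and 1.249) at levels of 1.18 to 4.21 CPM. Grb14, the relative of Grb10 in the same adaptor family, was higher at day 0 (0.70 ± 0.08, adjusted P = 7.2e-08), day 1 (0.61 ± 0.14) and day 7 (0.92 ± 0.15), and at day 2 it was at 0.22 ± 0.15 (adjusted P = 0.226). From day 1 on Grb14 was low, with group means of 2.10 to 4.15 CPM.

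DLK1 and NOTCH genes were read from a list of 27, of which 18 were in the table. Over the 4 days 4, 3, 6 and 5 were higher and 0, 1, 2 and 1 lower, with medians of 0.04, 0.07, 0.07 and 0.19. At day 0, 3 were lower at an unadjusted P under 0.05 in edgeR, but the share of all genes lower at that cut-off was not counted. Fn1, fibronectin, which binds soluble DLK1, was at 2238 ± 99.6 CPM with vehicle and 4432 ± 298 CPM with C70 at day 2 (0.99 ± 0.08, adjusted P = 3.3e-12), close in size to the 0.97 of Dlk1, and was higher at days 1 and 7 (0.49 and 0.72). Sox9, a transcription factor that DLK1 signalling maintains in preadipocytes, was higher at day 2 (0.82 ± 0.07, adjusted P = 1.3e-11), and at days 0, 1 and 7 it was at -0.23, 0.04 and 0.20 without passing both thresholds. Of the receptors, Notch3 was higher on all 4 days (0.60, 0.96, 0.80 and 0.74), from 4.66 ± 0.151 to 8.13 ± 0.602 CPM at day 2. Notch1 was higher at days 1, 2 and 7 (0.40, 0.48 and 0.40). Adam10, a sheddase that acts on NOTCH receptors, was higher at day 2 (0.51 ± 0.06), and Lfng, a glycosyltransferase that modifies them, at day 0 (0.56 ± 0.15).

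**Figure D5:**
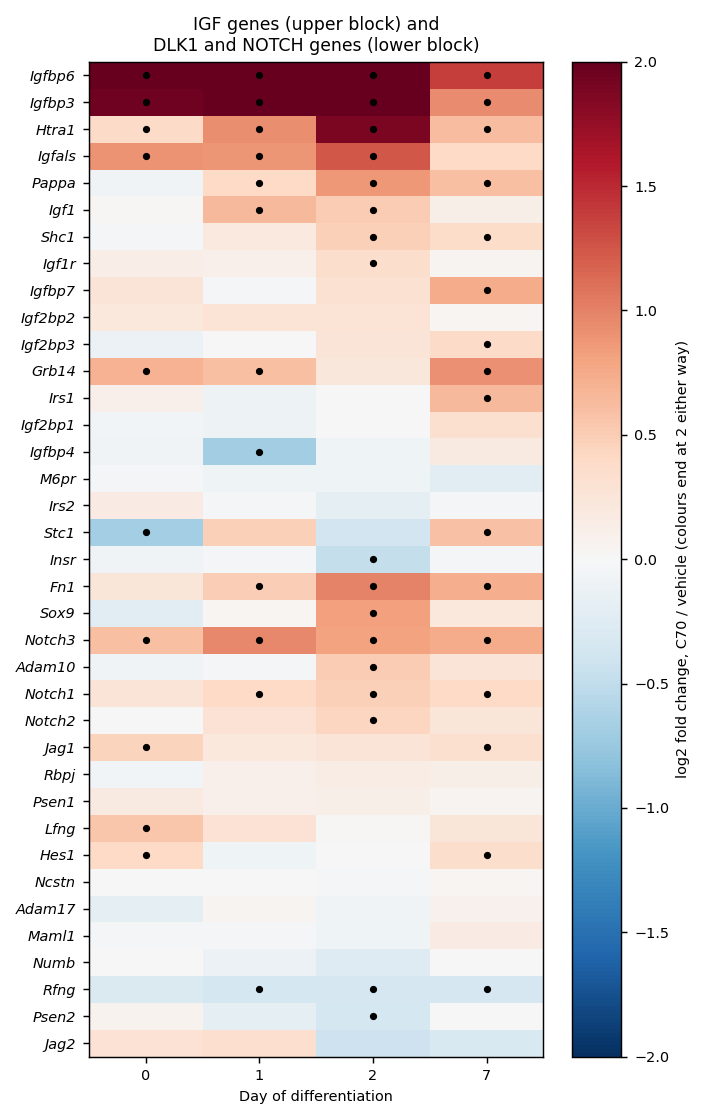
Log2 fold change of C70 against vehicle (colour, ending at 2 in either direction) for 19 IGF pathway genes (upper rows) and 18 DLK1 and NOTCH genes (lower rows), each block ordered by day 2, at days 0, 1, 2 and 7 (columns), with a dot on each DEG. Igfbp6 and Igfbp3 were higher on every day, and Fn1 and Sox9 led the lower block at day 2.

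Genes that keep or erase imprints were read from a list of 16, of which 15 were in the table. In order of day, 1, 2, 2 and 3 were higher and 0, 2, 2 and 1 lower. At an unadjusted P under 0.05 in edgeR, 2 were lower at day 0, where the share of all genes lower was not counted. Zfp57, a zinc finger protein that guards methylation at imprinting control regions, was higher on all 4 days (0.38, 1.26, 1.67 and 1.12), and at day 2 it stood at 3.56 ± 0.420 CPM with vehicle and 11.4 ± 0.870 CPM with C70 (adjusted P = 4.4e-13). Like Dlk1 it fell over time, from 37.9 ± 2.49 CPM in vehicle samples at day 0 to 1.81 ± 0.235 at day 7. Tet1, a dioxygenase that oxidises methylcytosine, was higher at days 1, 2 and 7 (0.52, 0.49 and 1.5), the last at 0.794 ± 0.399 and 2.27 ± 0.424 CPM. Uhrf1, which brings the maintenance methyltransferase to replicating DNA, was lower at days 1, 2 and 7 (-0.57, -0.75 and -0.60), and Dnmt3a, a methyltransferase that acts on unmethylated DNA, at days 1 and 2 (-0.38 and -0.54). Dnmt1, the maintenance methyltransferase, was higher at day 7 (0.33 ± 0.06, adjusted P = 4.6e-05).

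Cdkn1c, the imprinted inhibitor of cyclin-dependent kinases (CDKs), was not analysed here, and 6 other CDK inhibitor genes, Cdkn1a and Cdkn1b of its own CIP/KIP family and 4 of the INK4 family, were all in the table. Of these, 0, 3, 3 and 0 were higher and 0, 1, 2 and 0 lower in order of day, with the same counts by DESeq2. At an unadjusted P under 0.05 in edgeR, 2 were higher at day 0, against 16.2% of all genes. Another 2 were lower, a direction in which that share was not counted. Cdkn2b had the largest difference, at 20.3 ± 2.17 CPM with vehicle and 38.2 ± 2.09 CPM with C70 at day 2 (0.92 ± 0.09, adjusted P = 5.1e-10), and Cdkn1a and Cdkn2a were higher on the same day (0.46 and 0.44). Cdkn2d and Cdkn2c were lower at day 2 (-0.64 ± 0.11 and -0.56 ± 0.06). At day 1 Cdkn2b, Cdkn1a and Cdkn2a were already higher (0.86, 0.42 and 0.46) and Cdkn2c lower (-0.41). Cdkn2b itself fell from day 0 to day 2 in both treatments (-2.34 with vehicle and -1.66 with C70). At day 7, when 5 of the imprinted members were higher, 0 of these 6 were DEGs by edgeR or DESeq2. At an unadjusted P under 0.05 in edgeR, 3 were lower, against 22.8% of all genes, and 1 was higher, where that share was not counted. On the adjusted P alone 3 passed, all of them lower without reaching the fold threshold, against 2252 of 11959 genes lower.

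Finally, the genes most like each member were found by Pearson correlation of log2 CPM (prior count 2) over the 29 samples, given as a description because samples share days and treatments. For Dlk1 these were Vim (r = 0.991), Bgn (0.985), Triobp (0.983), Lrrc17 (0.982) and Tes (0.982). Vim encodes the intermediate filament protein vimentin and Bgn the proteoglycan biglycan. Vim fell less, from 2585 ± 85.3 CPM at day 0 to 683 ± 7.50 CPM at day 2 with vehicle, and its difference at day 2 was 0.42 ± 0.06 against the 0.97 of Dlk1. Bgn was higher after C70 by 0.56 ± 0.06 at day 2 and 0.60 ± 0.05 at day 7. Nearest to Igf2r were Ptgfr, a prostaglandin receptor gene (0.993), and Igsf3 (0.993), with a Ptgfr difference at day 2 of 1.01 ± 0.07. Itpkb (0.975) and Ptprk (0.974) were nearest to Peg3, Srgap2 (0.957) and Tmcc2 (0.952) to Plagl1, and Cd109 (0.985) and Rab31 (0.983) to Grb10. Mest had the least close neighbours, Plpp3 (0.906) and Lrrc4c (0.876). Among the members themselves r was highest for Dlk1 and Grb10 (0.947) and for Igf2r and Peg3 (0.908), and lowest for Dlk1 and Mest (0.392).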

How the data were processed

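RNA-seq counts of 29 3T3-L1 samples were used. Per the labels and the methods of the study, the authors aligned reads to GRCm38 with STAR 2.7.2a and Ensembl release 97, filtered low genes and normalized with edgeR (3.26.8 in the submitters' processing notes). The counting program, its use of strand and the filter are not given in the sources used here. The deposited table, though named as normalized, holds whole-number counts whose totals differ between samples (16320275 to 24037170), and it was treated as raw counts. Every gene had a CPM above 1 in at least 20 samples.

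Here, in R 4.3.3, all 8 groups were fitted together with edgeR 4.0.16 (TMM factors of 0.898 to 1.08, quasi-likelihood test, two-sided, no covariate), with Benjamini-Hochberg adjustment within each comparison. Standard errors were taken from the fold change and its F value. The biological coefficient of variation common to all genes came to 0.0594. Among 39 replicate pairs the chi-square per degree of freedom was 2.65 to 46.7, so no sample repeated another within counting noise. RPKM used exon lengths of GENCODE for GRCm38. On simulated data of 11959 genes, for C70 against vehicle at day 2, 87% of genes changed 1.5-fold and 96% of those changed 2-fold were recovered, with 3 false calls.

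Named were all members in the table, of each list up to 6 DEGs with the largest change of C70 against vehicle, list genes of the members' own domains, and the 5 genes most like Dlk1 or 2 most like each other member. Igfbp4, Igfbp7 and single marker genes were named after their values were seen. Members and lists were chosen with earlier results of these data known. Alternatives were 3 other scalings, a low-level filter, DESeq2 1.42.0, other thresholds, a fit per day, a replicate block and leaving out each library. Tables and plots were made with Python 3.11.15, pandas 2.3.3 and matplotlib 3.10.9.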

Additional observations from a re-analysis of the deposited data

Results flagged for a closer look

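The effect of C70 was compared between consecutive days for the 6 members, 18 differences in all, and 10 had an adjusted P value under 0.05 in edgeR's quasi-likelihood test (interaction contrasts, log2 scale). Of all genes, 19.9% passed at this cut-off between days 0 and 1, 19.8% between days 1 and 2 and 30.3% between days 2 and 7. Between days 0 and 1 the effect became more positive for Peg3 by 0.63 (adjusted P = 1.7e-05) and for Grb10 by 0.32 (adjusted P = 0.0216). Between days 1 and 2 it rose for Dlk1 by 0.58 (adjusted P = 0.00156), for Igf2r by 0.57 (adjusted P = 0.000221), for Mest by 0.59 (adjusted P = 0.000655) and for Peg3 by 0.45 (adjusted P = 0.00201). Between days 2 and 7 it rose for Mest by 0.80 (adjusted P = 6.9e-06) and for Plagl1 by 1.24 (adjusted P = 0.000264), and it shrank for Peg3 (-0.31, adjusted P = 0.0338) and Grb10 (-0.39, adjusted P = 0.00579). For Mest the direction itself differed, since every C70 sample was below every vehicle sample at day 0 and above at day 7. The samples of Peg3 were ordered likewise, but its difference at day 0 did not pass the test. No sample of a member stood far apart from the others in any of the 30 sets of 4 samples examined, where chance would give about 1.5. The vehicle groups of days 0, 1 and 2, with 3 samples each, were not examined in this way.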

How the results depend on the processing

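Most alternatives left out 1 of the 29 libraries, often 1 outside the groups compared. Such an omission can barely move a value, so many values and counts were bound to stay as they were. Of 2856 values of members under alternatives, 2800 kept their direction and their side of the thresholds, 30 no longer passed, 21 newly passed and 5 changed sign, none of the last past the threshold. The 5 were Peg3 from day 0 to day 1 in vehicle samples (0.0031 with total counts only, 0.0075 without day 0 vehicle replicate 2) and Plagl1 for C70 against vehicle at day 0 (0.0067 without day 0 vehicle replicate 3) and day 2 (0.12 without day 2 vehicle replicate 2), and for its effect at day 2 less day 1 (-0.053 without day 2 vehicle replicate 1). Of 952 counts of members, 920 stayed within 1.5 times. For the effect at day 7 less day 2, members lower numbered 2 with upper quartile factors, with total counts only and on the adjusted P alone, Peg3 being added to Grb10, and 0 with a fold over 1.5. For day 1 less day 0, members higher numbered 1 with total counts only and with a fold over 1.5. On the adjusted P alone, members higher after C70 at day 1 numbered 4 (and genes 2514 of 11959). With a fold over 1.5 they numbered 0 (genes 895), as did members lower at day 0 (genes 63) and at day 1 (genes 196). At that fold vehicle members at day 1 numbered 0 higher and 2 lower, C70 members higher numbered 1 at day 1 and 0 at day 2, and the effect at day 2 less day 1 was higher in 1. Shares of all genes at that fold were not counted for changes over time or differences of effect between days. Leaving out 1 library gave 1 to 2 members higher for day 1 less day 0, 1 to 2 lower for day 7 less day 2, 2 to 4 lower in vehicle at day 1 (2 without day 1 vehicle replicate 1) and 0 to 1 lower after C70 at day 1 (0 without day 1 vehicle replicate 3). Over the libraries left out, Plagl1 at day 0 ranged from -0.11 to 0.0067, Plagl1 for day 2 less day 1 from -0.053 to 0.27, and Peg3 in vehicle at day 1 from -0.063 to 0.0075. The cause was not tested. Replicate numbers did not pair the samples (correlations of same-numbered deviations of -0.20 to 0.21), and the replicate block left every member count of C70 against vehicle as it was, with Dlk1 at 0.95 at day 2. Scaling by total counts alone moved the median of all genes at day 7 against day 0 to -0.17 with C70 and -0.14 with vehicle. Depth limits Plagl1, with as few as 18 counts in a sample.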

Other observations

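Cd68, the only macrophage marker with a row, was higher after C70 on the first 3 days. It was at 1.31 ± 0.309 CPM (SD, n = 3) with vehicle and 19.1 ± 0.481 CPM (n = 4) with C70 at day 0, at 1.88 ± 0.132 and 14.1 ± 0.681 at day 1, at 1.59 ± 0.226 and 6.68 ± 0.293 at day 2, and at 2.43 ± 0.346 and 1.94 ± 0.705 CPM (n = 4 each) at day 7. On the log2 scale C70 differed from vehicle by 3.85 ± 0.15 (SE) on day 0, 2.90 ± 0.14 on day 1, 2.06 ± 0.16 on day 2 and -0.31 ± 0.17 on day 7, the last without passing edgeR's quasi-likelihood test (adjusted P = 0.158). Des, the only muscle marker with a row, was higher on the same 3 days (0.86, 1.51 and 0.47), and was at -0.18 at day 7 (adjusted P = 0.0545). These differences include days 1 and 2, when 2 and 4 of the imprinted members were higher, and their part in the members' differences was not tested.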
